A study of Mus musculus with 18 samples.

Results

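Type 1 innate lymphoid cells (ILC1s) of the spleen were compared with ILC1s of the liver in mice whose NKp46-expressing cells carry RARα403. The comparison used 6 of the 18 libraries of the series, 3 from the spleen and 3 from the liver, chosen by their labels, and every gene expressed in these 6 libraries. Both groups came from C57BL/6 mice 8 weeks old with the genotype Ncr1-Cre; Rosa26-RARalpha403, so by the labels they shared the transgene and the Cre allele and differed in organ. RARα403, a shortened form of the retinoic acid receptor α, blocks signalling through the intact receptors. It is carried at the Rosa26 locus and switched on where Cre is made, here from Ncr1, the gene of NKp46, so that NK cells and ILC1s of every organ are targeted together. The 6 matching libraries of C57BL/6 Ncr1-Cre mice of the same age, 3 from spleen and 3 from liver ILC1s without RARα403, served for the same organ comparison in control cells. The remaining 6 libraries, of liver NK cells, entered only a shared-fit alternative. Each library held RNA of 200 sorted cells gated as IL-7R+, CD49a+ and CD49b lo among NK1.1+ NKp46+ cells without CD3. The labels do not say which libraries came from the same animal, nor whether animals were pooled, so the p-values measure only the spread between these libraries, which may be technical.

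ILC1s are lymphocytes that live in tissues and make interferon-γ and other cytokines, whereas NK cells circulate through blood and spleen and kill target cells. Liver ILC1s are kept in the tissue by a residency programme that includes the chemokine receptor CXCR6, the integrin CD49a and the transcription factor Hobit, and lymphocytes that recirculate instead use KLF2, its target S1PR1 and L-selectin. Retinoic acid, made from vitamin A, acts through nuclear receptors that pair a RAR with an RXR on DNA, and it is known for imprinting homing receptors on lymphocytes. The question of the series is the need of ILC1s for signalling through retinoic acid receptors, and the organ comparison shows how the cells bearing the dominant-negative receptor differ between spleen and liver.

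The 3 RARα403 liver libraries held 6087298, 6686951 and 6809570 counts, and the 3 spleen libraries held 6276036, 5949662 and 7344750. A count of 3 corresponded to 0.4085 to 0.5042 CPM (counts scaled to a common library total), the depth limit used below. Levels are given as log2 CPM with a prior count of 2, always in the order of replicates 1, 2 and 3, and a difference is spleen minus liver on the log2 scale, with its standard error (SE). The genes that define the gate were present in all 6 libraries. Ncr1 (NKp46) stood at 11.57, 11.56 and 11.52 in spleen and 11.27, 11.77 and 11.48 in liver, and Klrb1c (NK1.1) lay between 9.91 and 10.50. Tbx21, the T-bet gene, lay between 8.93 and 9.68. The CD3 genes were not absent: Cd3e stood at 5.98, 5.16 and 6.22 in spleen and 6.95, 2.34 and 6.44 in liver. Cells were selected on NKp46, CD49a, CD49b and IL-7R, so the levels of Ncr1, Itga1, Itga2 and Il7r and the setting of the gate cannot be told apart between organs.

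The libraries numbered 1 stood apart from the others, and the main counts, the list medians and the genes the results turn on are given with and without them. The library labelled spleen replicate 1 correlated with the other 5 at r = 0.746 to 0.771 across genes, against 0.835 to 0.883 among those 5, and it had 19211 genes with a count, against 15330 to 17110 in the others. It also held the most hepatocyte RNA. Of 26 hepatocyte markers, 24 had a count in this spleen-labelled library, where they summed to 449 CPM, against 34.2 and 26.2 CPM in spleen replicates 2 and 3 and 28.0, 63.8 and 12.8 CPM in the liver libraries. Alb, the albumin gene, stood at 5.32 there, had 0 counts in spleen replicates 2 and 3, and reached 1.94, 2.69 and -0.71 in the liver libraries. Hepatocyte RNA therefore did not follow the organ labels of these 6 libraries. The library labelled spleen replicate 1 also held markers of other cells. Stellate and stromal markers, none of them tested, summed to 97.1 CPM there, against 0.535 to 9.61 CPM in the other 5. Of 17 neutrophil and monocyte markers, 7 had 0 counts there, against 14 or 15 in the others. Their sum there, 1390 CPM, lay within the 564 to 1430 CPM of the others. An exchange of the spleen and liver libraries numbered 1 cannot be told apart from other differences of these libraries. Hepatocyte markers showed no organ order in the control cells either. They summed to 82.9, 49.2 and 204 CPM in spleen and 353, 21.4 and 28.9 CPM in liver. The part of hepatocyte, stromal and neutrophil RNA in the results below was not tested.

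The spleen minus liver difference of replicate 1 ran, if anything, against that of replicates 2 and 3. Across the 12011 genes tested, the difference within number 1 and the mean difference of numbers 2 and 3 correlated at r = -0.051, and 6348 genes (52.9%) had opposite signs. Numbers 2 and 3 correlated with each other at r = 0.134. The mean difference of RARα403 numbers 2 and 3 correlated with that of control numbers 2 and 3 at r = 0.291, and RARα403 number 1 did so at r = -0.073. In the control cells number 1 against numbers 2 and 3 gave r = -0.007. These are correlations across genes, which are not independent replicates, and each pair of differences comes from separate libraries. The sample codes of number 1 begin with 1 and those of numbers 2 and 3 with 2, and the labels do not say what this digit marks.

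A pair of transcripts chosen after their values were seen followed the replicate numbers across organs. Gt(ROSA)26Sor, the noncoding transcript of the locus that carries RARα403, stood at 57.9, 0.168 and 0.401 CPM in spleen and 64.5, 0.153 and 0 CPM in liver. Its control values ran from 23.1 to 157 CPM, so in replicates 2 and 3 of the RARα403 cells the transcript was nearly missing, while both libraries numbered 1 held it at levels within the control range. Whether the libraries numbered 1 carry the same state of the transgene locus as replicates 2 and 3 was not tested. Gt(ROSA)26Sor is annotated as antisense, and reads from the opposite strand cannot be told apart. Xist, expressed from the inactive X chromosome of females, had 1, 925 and 1 counts in spleen and 0, 1314 and 0 in liver. In both transcripts the spleen and liver libraries of one number were alike, so neither separates the organ labels of the libraries numbered 1. Not every sex-linked gene was alike. Ddx3y, also picked with values in view, differed by -0.71, 4.95 and -0.38 log2 CPM between spleen and liver in numbers 1, 2 and 3. In number 2 the sex-linked genes Eif2s3y and Kdm5d differed by 0.0.

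No gene passed the test between RARα403 spleen and liver ILC1s. Of 12011 genes tested with edgeR (quasi-likelihood fit, Benjamini-Hochberg adjustment), 0 (0%) had an adjusted p under 0.05, and the smallest adjusted p was 0.9986. At an unadjusted p under 0.05 there were 192 genes higher in spleen (1.60%) and 188 higher in liver (1.57%), together 3.16% of those tested. The 3 spleen values lay wholly above the 3 liver values for 541 genes (4.50%), and wholly below them for 620 (5.16%). DESeq2 called 33 genes at an adjusted p under 0.05, 22 higher in spleen (0.183%) and 11 higher in liver (0.0916%). In counts simulated with the spread estimated for each gene, DESeq2 made 53 false calls among 216 and edgeR 7 among 145. The simulated counts held no library that stood apart as spleen replicate 1 does. Of the genes given a 4-fold change edgeR recovered 55% there, and of those given a 16-fold change 83%. The changed genes were all at a mean of 3 log2 CPM or more. The genes described next are those with the smallest p among genes at 3 log2 CPM or more in the higher organ with no overlap of the libraries, 12 in each direction. In each of them the edgeR adjusted p was 0.9986, so their values describe these libraries.

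Of the 12 genes higher in spleen, Ebf1, Btk, March1, H2-Ab1 and Tnfrsf13b are known from B cells or antigen presentation. Ralgps2, an exchange factor for Ral GTPases (chromosome 1, 156804166 to 156939626, minus strand, mm10), stood at 4.55, 5.61 and 4.49 in spleen and 1.06, 1.69 and 1.4 in liver. All 3 spleen libraries were above all 3 liver libraries by a wide gap, and the difference was 3.75 (SE 0.60, unadjusted p = 0.000289 by edgeR). Ebf1, the transcription factor of early B cell commitment (chromosome 11, 44617317 to 45008091, plus strand), had 126, 67 and 81 counts in spleen and 1, 1 and 0 in liver. Its CPM ratio of spleen over liver was 137, with a 95% interval of 37.5 to 1130 that covers counting error only. Btk, the kinase of B cell receptor signalling (chromosome X, 134542336 to 134583570, minus strand), had 49, 131 and 101 counts in spleen and 0, 1 and 0 in liver, a ratio of 280 (95% interval 49.9 to 11100). March1, a ubiquitin ligase that removes MHC class II from the cell surface, had 117, 73 and 49 counts in spleen and none in liver, at least 27.2-fold higher in spleen against a floor of 3 counts per library.

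H2-Ab1, the β chain of the MHC class II molecule I-A (chromosome 17, 34257689 to 34269419, plus strand), stood at 5.82, 7.27 and 6.20 in spleen and 3.19, 4.51 and 3.77 in liver. It was present in both organs, unlike Ebf1 and Btk, with a difference of 2.68 (SE 0.51, unadjusted p = 0.000838 by edgeR). Tnfrsf13b, the receptor TACI of B cells, had 47, 68 and 53 counts in spleen and none in liver, at least 18.9-fold higher. Scd1, the stearoyl-CoA desaturase of fatty acid synthesis, had 33, 169 and 99 counts in spleen and none in liver, at least 34.1-fold higher. The actin-binding calponin gene Cnn3 (47, 75 and 46 counts, at least 19.1-fold) and the tubulin gene Tuba8 (46, 125 and 53 counts against 0, 2 and 0, ratio 112, 95% interval 30.6 to 928) followed the same pattern.

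The other genes of the 12 were Popdc3, Pwwp2a and Gpr15. Popdc3, a member of the Popeye domain family, had 50, 206 and 40 counts in RARα403 spleen and none in RARα403 liver, at least 34.8-fold higher, and it had 0 counts in all 3 control spleen libraries. Pwwp2a, a chromatin protein that binds the histone variant H2A.Z, stood at 5.35, 6.67 and 6.08 in spleen and 3.14, 3.34 and 4.54 in liver, a difference of 2.36 (SE 0.52). Gpr15, a homing receptor of lymphocytes, stood at 6.19, 6.44 and 6.58 in spleen and 5.39, 4.37 and 5.13 in liver, a difference of 1.41 (SE 0.32, unadjusted p = 0.002612 by edgeR). Of these 12 genes, Gpr15 had the narrowest range over the spleen libraries.

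The 12 genes higher in liver included the lymphocyte genes Bcl11b, Plcg1, Gpr174 and Cd200r2. Bcl11b, a transcription factor of T cells and ILC2s (chromosome 12, 107910403 to 108003602, minus strand), stood at 4.31, 4.08 and 4.86 in spleen and 5.93, 6.71 and 6.24 in liver. The lowest liver library was above the highest spleen library with a clear gap, and the difference was -1.87 (SE 0.34, unadjusted p = 0.000658 by edgeR). Plcg1, the phospholipase Cγ1 that acts below antigen and activating receptors (chromosome 2, 160731300 to 160775760, plus strand), stood at 4.04, 3.65 and 4.19 in spleen and 5.20, 6.42 and 6.06 in liver, a difference of -2.00 (SE 0.40). Gpr174, a lysophosphatidylserine receptor of lymphocytes (chromosome X, 107255878 to 107296769, plus strand), stood at 5.23, 5.96 and 5.44 in spleen and 6.73, 7.48 and 6.79 in liver, a difference of -1.46 (SE 0.31). These 3 genes were detected in every library of both organs, so their differences do not rest on counts near 0.

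Slc25a12, the mitochondrial aspartate-glutamate carrier (chromosome 2, 71271063 to 71367749, minus strand), separated the organs with little spread within each. It stood at 5.49, 5.11 and 5.82 in spleen and 6.76, 6.89 and 6.67 in liver, a difference of -1.26 (SE 0.26, unadjusted p = 0.001266 by edgeR). Its control values were 6.35, 6.53 and 6.24 in spleen and 6.21, 6.47 and 6.51 in liver, a difference of -0.02 (SE 0.23). The 3 RARα403 spleen values therefore lay below all other ILC1 values of the gene. Cd200r2, an activating relative of the CD200 receptor, had 0, 29 and 3 counts in RARα403 spleen and 76, 1026 and 446 in RARα403 liver, a difference of -5.48 (SE 1.42). Its control counts were 1207, 313 and 252 in spleen and 1100, 371 and 1228 in liver.

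Ccdc80, a gene of extracellular matrix assembly, had 0, 0 and 5 counts in spleen and 53, 113 and 221 in liver, a difference of -6.23 (SE 1.43). Setbp1, whose product binds the SET protein, had 1, 0 and 0 counts in spleen and 87, 41 and 42 in liver, a ratio of liver over spleen of 170 (95% interval 30.2 to 6770). Cln6, an endoplasmic reticulum protein needed for lysosomal function, differed by -3.61 (SE 0.83) and the zinc finger gene Zbtb41 by -1.98 (SE 0.40). The remaining 3, Etfrf1 (-1.87, SE 0.52), the deubiquitinase gene Otud4 (-1.07, SE 0.30) and the zinc finger gene Zfp292 (-0.82, SE 0.22), were also detected in all 6 libraries. In the control cells the differences of Bcl11b, Plcg1 and Gpr174 were -0.44 (SE 0.51), -0.99 (SE 0.40) and -0.65 (SE 0.28), on the same side as in the RARα403 cells.

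Without the libraries numbered 1, 0 of 12303 genes (0%) passed by edgeR, and the smallest adjusted p was 0.497. At an unadjusted p under 0.05 there were 399 genes in each direction (3.24% each, 6.49% together). With 2 libraries against 2 the groups did not overlap for 2248 genes higher in spleen (18.3%) and 2301 higher in liver (18.7%). DESeq2 called 142 genes, 71 in each direction (0.577% each), in a setting added after the data were seen. In simulated counts of this size DESeq2 made 64 false calls among 217 and edgeR 15 among 156. The 24 genes above were chosen for organs without overlap, so leaving out the libraries numbered 1 could not turn their direction. The same ordering applied to this fit, a choice made with the values in view, put Cxcr6 first among the genes higher in liver and H2-Aa first among those higher in spleen.

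Cxcr6, the receptor for the chemokine CXCL16 of liver sinusoids (chromosome 9, 123806475 to 123811760, plus strand), was the gene of smallest p in replicates 2 and 3. It stood at 10.40, 9.0 and 8.96 in spleen and 8.92, 10.38 and 10.38 in liver. Replicates 2 and 3 were higher in liver and replicate 1 was higher in spleen by about the same amount. The difference was -0.39 (SE 0.50) with all 6 libraries and -1.40 (SE 0.13, unadjusted p = 5.06e-05, adjusted p = 0.497 by edgeR) in replicates 2 and 3. In control cells Cxcr6 stood at 10.31, 8.11 and 8.53 in spleen and 10.12, 10.12 and 10.27 in liver, where the library numbered 1 was again the high one in spleen.

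Itga1, the CD49a chain used in the gate, stood at 6.95, 6.08 and 6.84 in spleen and 6.49, 8.09 and 7.76 in liver, a difference of -0.90 (SE 0.42) and, in replicates 2 and 3, of -1.42 (SE 0.31). Zfp683, the gene of Hobit, stood at 5.17, 4.72 and 4.50 in spleen and 5.30, 6.06 and 5.95 in liver, and all liver libraries lay above all spleen libraries. Its difference was -0.98 (SE 0.34, unadjusted p = 0.02267 by edgeR) and -1.40 (SE 0.29) without the libraries numbered 1. Unlike Cxcr6, Zfp683 was lower in spleen in replicate 1 as well, by a small amount. Bcl2, which protects lymphocytes from apoptosis, stood at 9.15, 9.31 and 8.76 in spleen and 8.81, 10.04 and 9.94 in liver, a difference of -0.59 (SE 0.32) and of -0.93 (SE 0.21) in replicates 2 and 3.

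S1pr1, the sphingosine 1-phosphate receptor that leads lymphocytes out of tissue, stood at 7.27, 7.92 and 8.49 in spleen and 7.86, 4.94 and 6.83 in liver. The liver library numbered 1 overlapped the spleen values and the other liver libraries did not, and the difference was 1.01 (SE 0.64), or 2.06 (SE 0.62) in replicates 2 and 3. Klf2, the transcription factor above S1pr1, stood at 7.17, 8.44 and 8.67 in spleen and 8.32, 7.05 and 7.75 in liver, a difference of 0.44 (SE 0.43), or 1.12 (SE 0.28). Eomes, the T-box factor that marks NK cells over ILC1s, stood at 6.08, 6.24 and 7.52 in spleen and 6.91, 4.51 and 6.03 in liver, a difference of 0.66 (SE 0.62), or 1.57 (SE 0.64). Each of the 3 genes was higher in liver in replicate 1 and higher in spleen in replicates 2 and 3, and their control differences were 2.90 (SE 0.81), 1.95 (SE 0.66) and 2.84 (SE 1.15).

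**Figure D1:**
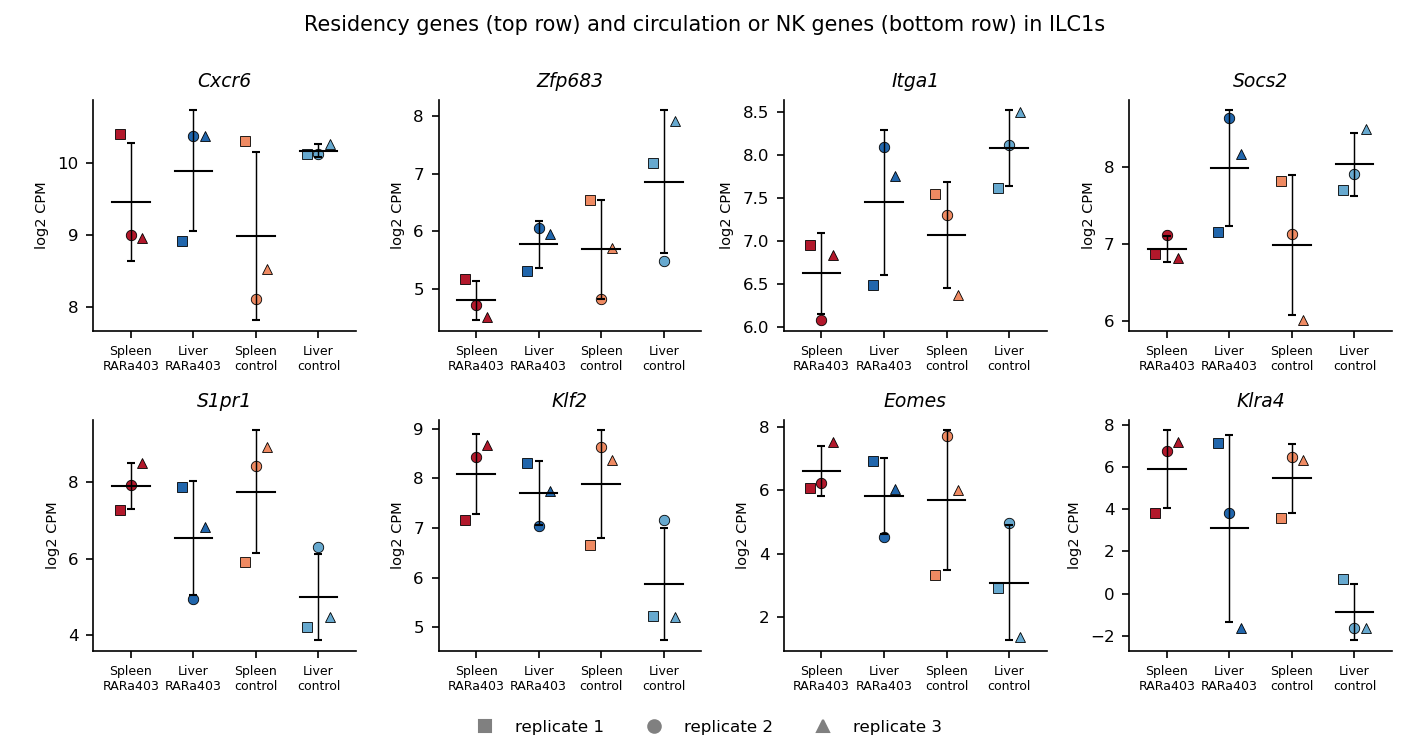
Levels (log2 CPM, vertical axis) of residency and circulation genes in each of the RARα403 and control ILC1 libraries, with the replicate shown by the symbol and bars for the mean and SD. For Cxcr6 the RARα403 libraries numbered 1 lie at 10.40 in spleen and 8.92 in liver, in the reverse order of replicates 2 and 3.

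The residency list followed the same order of replicates. No member of any of the 34 lists passed by edgeR. Of 26 tested ILC1 and tissue residency genes, 1 was higher in spleen and 3 higher in liver at an unadjusted p under 0.05. The shares of all genes were 1.60% and 1.57%. The median difference of the list was -0.16, against 0.01 over all genes. In replicates 2 and 3 the libraries did not overlap for 15 members higher in liver and 4 higher in spleen, against 18.7% and 18.3% of all genes, with a median of -0.62. By number the medians were 0.54, -0.84 and -0.72, so number 1 again stood on the other side. The members of smallest p over all 6 libraries were Socs2, a brake on cytokine signalling (-1.15, SE 0.35), Tcf7, the gene of TCF-1 (0.80, SE 0.26), and Zfp683. Tcf7 stood at 8.60, 9.08 and 8.59 in spleen and 8.12, 7.42 and 8.28 in liver, the only residency list member whose spleen values all lay above the liver values.

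Of 25 tested NK cell maturation genes, the median difference was 0.39, and 0.73 in replicates 2 and 3, where 14 were higher in spleen (18.3% of all genes) and 3 higher in liver (18.7%) without overlap. The members of smallest p over all 6 libraries were Ikzf3, the gene of Aiolos (-0.47, SE 0.19), Irf8 (0.53) and Itgam, the CD11b chain (0.64). Of 17 egress and lymphoid homing genes the median was 0.17, and 0.75 in replicates 2 and 3, where 11 were higher in spleen and 2 in liver without overlap, against the same 18.3% and 18.7%. In control cells the medians of these lists were 0.60 and 1.24. Within the egress list the integrin chain Itga4 stood at 7.58, 8.12 and 8.38 in spleen and 7.86, 6.85 and 7.35 in liver (0.66, or 1.14 in replicates 2 and 3), and Cxcr3, a chemokine receptor for interferon-induced ligands, differed by -0.52.

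The Ly49 receptor genes, which encode the MHC class I receptors of mouse NK cells, had a median difference of 0.45 over 11 tested genes and of 2.34 in replicates 2 and 3. There 7 were higher in spleen and 0 higher in liver without overlap, against 18.3% and 18.7% of all genes. The medians by number were -0.70, 1.73 and 2.58. Klra1, which had the smallest p of the list, stood at 6.60, 6.92 and 5.51 in spleen and 6.57, 3.69 and 5.52 in liver, so that its groups overlapped. Klra4, picked with values in view, stood at 3.8, 6.74 and 7.16 in spleen and 7.13, 3.8 and 0 counts in liver, again reversed in number 1. Control cells had 6 of 11 Ly49 genes higher in spleen and 0 higher in liver without overlap. The shares of all genes there were 4.74% and 4.56%, and the control median of the list was 1.93. These genes are close copies of each other, and the sources used here do not say how multiply aligned reads were counted, so the level of any 1 member is uncertain.

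**Figure D2:**
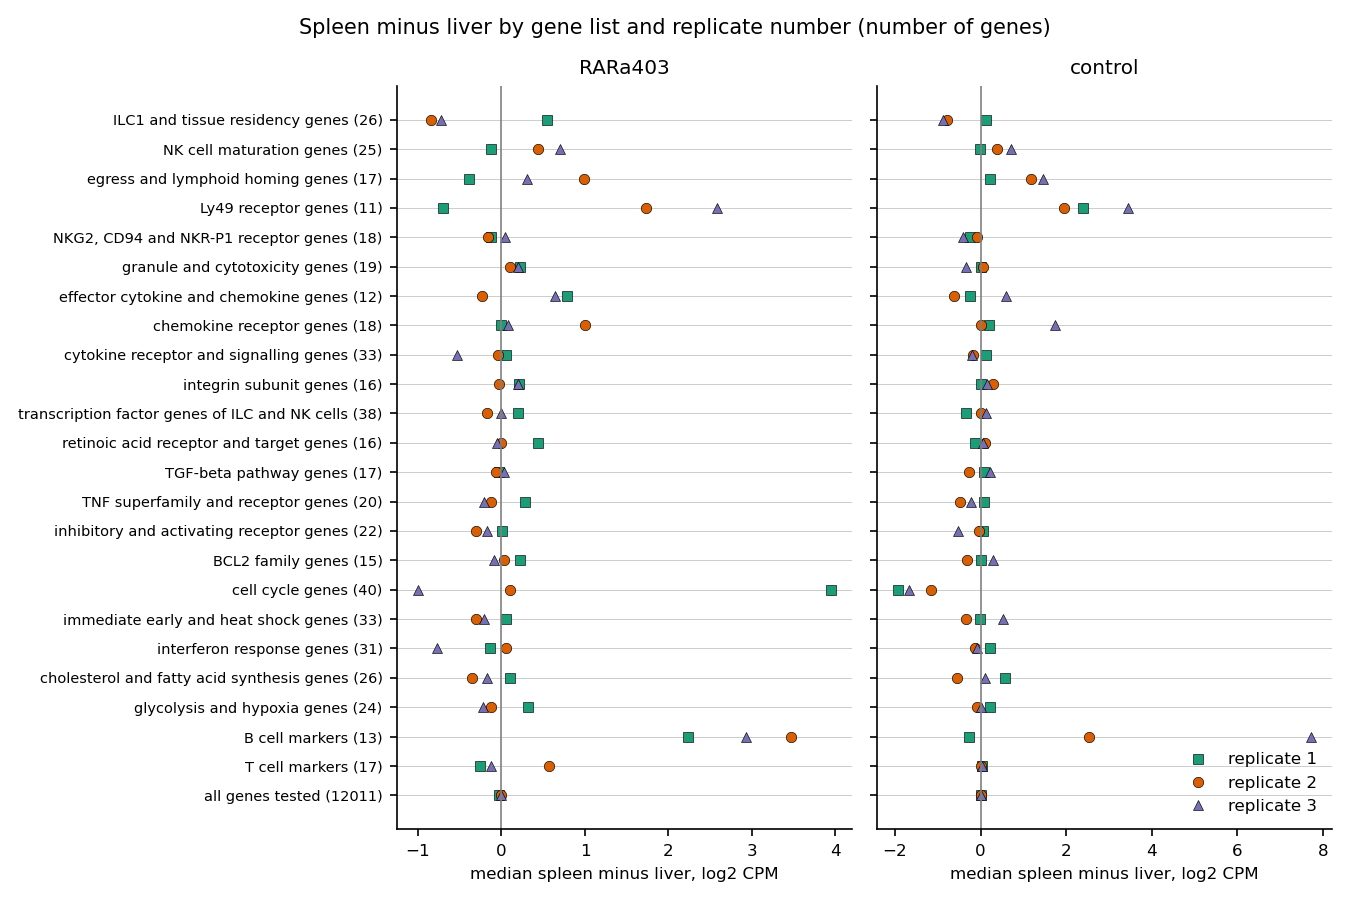
Median spleen minus liver difference (log2 CPM, horizontal axis) of each gene list, for replicates 1, 2 and 3 of the RARα403 cells (left) and of the control cells (right). The residency list lies at 0.54, -0.84 and -0.72 in the RARα403 cells, and the cell cycle list at 3.95, 0.10 and -1.0.

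B cell markers were the list farthest from the background. Of 13 tested, 8 had an unadjusted p under 0.05 with spleen higher and 8 did not overlap with spleen higher, against 1.60% and 4.50% of all genes, and the median difference was 2.68. In replicates 2 and 3, 18 of 19 markers were higher in spleen without overlap, against 18.3% of all genes, with a median of 5.02. The 19 include markers, such as Ms4a1, that pass the filter there only through these 2 spleen libraries. That count and median are therefore partly set by the filter. For the 13 tested with all libraries, the median difference of levels in replicates 2 and 3 was 3.25. Members of the 13 with almost no counts in liver, such as Ebf1, pass the filter only through the 3 spleen libraries. The counts and medians of the 13 are therefore also partly set by the filter. The 19 markers summed to 661 to 2330 CPM in spleen and 603 to 793 CPM in liver, and Ighm, the largest in liver, stood at 8.25, 9.21 and 9.20 in spleen and 9.05, 8.78 and 9.30 in liver. Defining B cell genes were at 0 in the library labelled spleen replicate 1: Ms4a1 (CD20) had 0, 350 and 128 counts in spleen and none in liver.

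Igkc, the immunoglobulin κ constant region, had 0, 1189 and 536 counts in spleen and 0, 0 and 10 in liver, and Cd79a, part of the B cell receptor, had 0, 311 and 265 in spleen and 0, 17 and 3 in liver. Other members were present in all 3 spleen libraries, among them Ebf1, H2-Ab1 and Iglc2, an immunoglobulin λ constant region that stood at 2.99, 4.59 and 2.84 in spleen and -0.32 or less in liver. Control spleen ILC1s held the same markers, with 49, 234 and 2319 counts of Ms4a1, and a list median of 4.01. The spleen libraries numbered 1 were the lowest in Ms4a1 in both genotypes. In libraries of 200 sorted cells, a few cells of another type and low RNA in many cells cannot be told apart, and likewise fewer cells of a type and less RNA per cell. The part of B cell RNA in the spleen-higher genes, Ralgps2, Btk, March1 and Tnfrsf13b included, was not tested.

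**Figure D3:**
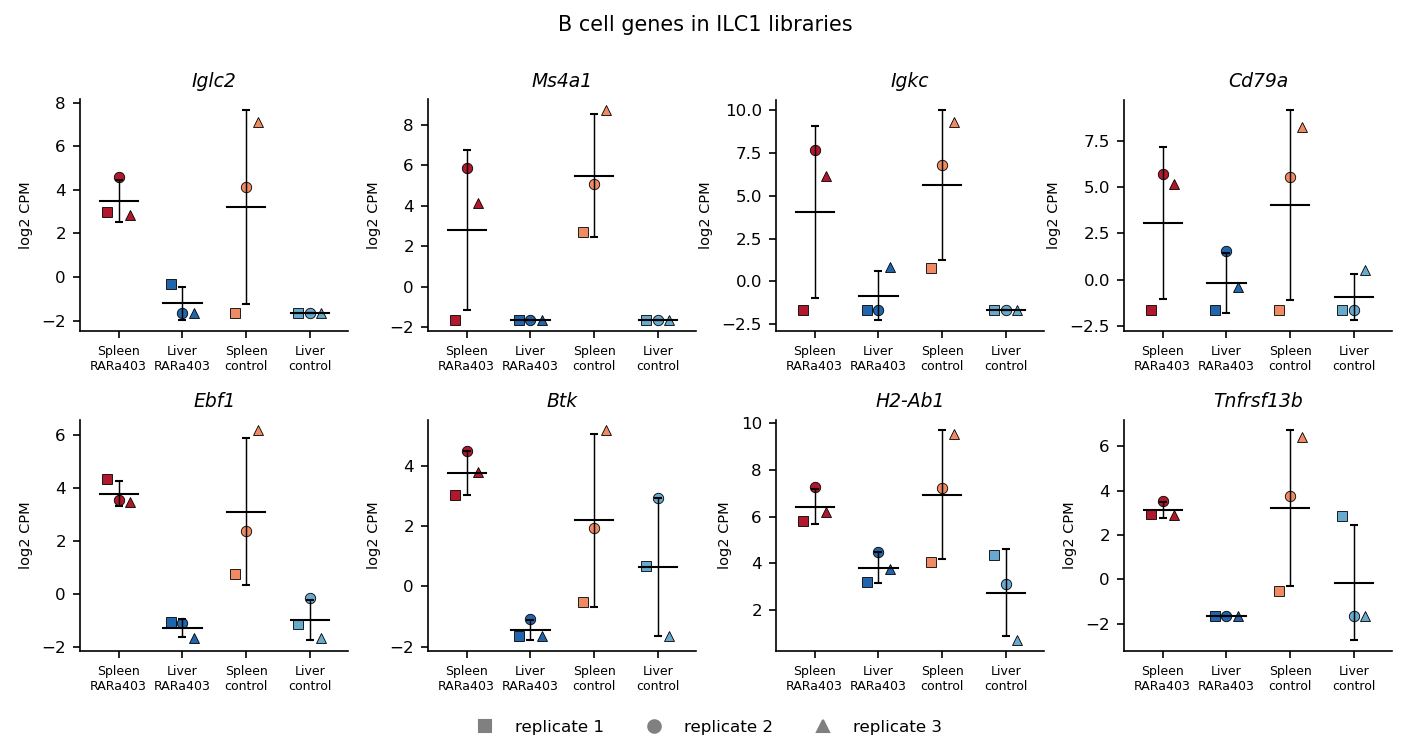
Levels (log2 CPM, vertical axis) of B cell markers in each RARα403 and control ILC1 library by organ. The lowest points of Ms4a1 are libraries with 0 counts, as in the library labelled spleen replicate 1 and in all 3 RARα403 liver libraries.

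Markers of other cell types were also present in these libraries. Of 17 tested T cell markers the median was -0.27, and 0.10 in replicates 2 and 3. Over all 6 libraries 5 were higher in spleen and 12 higher in liver, against 9 and 8 in replicates 2 and 3. There Cd3d and Cd3e, picked with values in view, were higher in spleen by 1.14 and 1.30 in mean level. Bcl11b belongs to that list, as do Tcrg-C1, a γ chain constant region (-1.36, unadjusted p = 0.03796 by edgeR), and Cd3g, which stood at 7.88, 5.96 and 7.09 in spleen and 7.51, 8.60 and 8.65 in liver. The 19 T cell markers summed to 1830 to 2130 CPM in spleen and 2330 to 2820 CPM in liver, so the liver libraries were slightly higher without overlap; their part in the difference of Bcl11b was not tested. Macrophage and Kupffer cell markers, of which Cd68, Vcam1 and C1qc had the smallest p, summed to 93.4, 117 and 59.4 CPM in spleen and 13.6, 139 and 7.54 CPM in liver. Erythroid and platelet markers summed to 5.23, 6.54 and 2480 CPM in spleen and 1140, 791 and 2.03 CPM in liver, and their part in the results was not tested. Apoe, a hepatocyte and macrophage transcript, stood at 7.0, 4.33 and 4.24 in spleen and 3.11, 4.95 and 1.62 in liver (2.03 with all libraries, 0.21 in replicates 2 and 3). Macrophage markers had a median of 1.07, or 0.59 in replicates 2 and 3. Of 10 tested ILC2 and ILC3 markers the median was 0.89, or 0.59 in replicates 2 and 3. Il23r, a receptor chain of ILC3s, stood at 4.81, 5.11 and 2.60 in spleen and 0.36, 1.55 and 2.74 in liver (2.15 in replicates 2 and 3), and Kit differed by 0.48.

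Of 19 granule and cytotoxicity genes, 2 had an unadjusted p under 0.05 with spleen higher and none with liver higher, against 1.60% and 1.57% of all genes, and the median was 0.12. In replicates 2 and 3 there were 2 with spleen higher and 3 with liver higher, against 3.24% each, and the median was 0.21. Serpinb9, the inhibitor that protects cells from their own granzyme B, stood at 8.52, 8.26 and 8.22 in spleen and 7.30, 7.63 and 7.86 in liver (0.75, unadjusted p = 0.006462 by edgeR, or 0.50 in replicates 2 and 3). Serpinb1a, a serpin that inhibits neutrophil proteases, was second by p (1.80, or 0.63 in replicates 2 and 3), and the dipeptidyl peptidase Ctsc, which activates granzymes, differed by 0.45. Of 12 effector cytokine and chemokine genes the median was 0.11, or 0.02 in replicates 2 and 3. Tnf stood at 5.14, 4.46 and 4.72 in spleen and 4.19, 2.79 and 2.77 in liver without overlap (1.43, unadjusted p = 0.03963), Lta at 5.50, 5.76 and 5.49 against 5.21, 3.72 and 4.61 (0.97), and Ccl5 at 10.09, 10.49 and 10.58 against 11.05, 10.68 and 10.70 (-0.41). In replicates 2 and 3 the differences of Tnf and Lta, cytokines of the same superfamily, were 1.87 and 1.42. Neither gene had overlapping organs over all 6 libraries, so leaving out the libraries numbered 1 could not turn their direction.

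Chemokine receptors had a median of 0.25 over 18 tested genes, and 0.45 in replicates 2 and 3. Ccr8, which is found on some tissue T cells, stood at 6.29, 4.92 and 5.37 in spleen and 3.96, 4.69 and 3.98 in liver (1.43, unadjusted p = 0.01592 by edgeR, or 0.80 in replicates 2 and 3), without overlap. Ccr2, the receptor for inflammatory monocyte chemokines, stood at 9.54, 9.23 and 9.18 in spleen and 8.94, 8.72 and 8.90 in liver (0.48, unadjusted p = 0.01963 by edgeR, or 0.39 in replicates 2 and 3), also without overlap. In control cells both pointed the other way, at -0.73 and -0.43. The NKG2, CD94 and NKR-P1 receptor genes had a median of -0.11, or -0.08 in replicates 2 and 3, with Clec2i, a ligand of an NKR-P1 receptor, at -0.53, Klri2 at 0.74 and Klrb1f at 0.32.

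Among cytokine receptor and signalling genes the median was -0.12 over 33 tested, or -0.25 in replicates 2 and 3. There were 3 members higher in liver at an unadjusted p under 0.05, against 1.57% of all genes. They were Socs2, Ifnar1, a chain of the type I interferon receptor (7.20, 6.98 and 7.04 in spleen against 7.84, 7.40 and 7.80 in liver, -0.61 with and without the libraries numbered 1), and Il21r (-1.57). Il7r, used in the gate, differed by 0.25, or 0.66 in replicates 2 and 3. The integrin subunit list had a median near 0, and of 0.03 in replicates 2 and 3 (Itga1, Itga4 and Itga5, the last at 0.49), and Itga2, the CD49b chain, differed by 0.11, or 1.04 in replicates 2 and 3. Inhibitory and activating receptor genes had a median of -0.06, or -0.13 in replicates 2 and 3, and 4 of 22 tested were higher in liver without overlap, against 5.16% of all genes. Cd200r2 led them, followed by Cd101 (0.80, 3.47 and 3.67 in spleen against 4.51, 5.04 and 4.90 in liver, -1.77, or -1.42 in replicates 2 and 3) and Cd96 (-0.36).

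Transcription factors of ILCs and NK cells had a median of 0.16 over 38 tested, or -0.08 in replicates 2 and 3. Bcl11b, Tcf7 and Zfp683 had the smallest p. Tbx21 differed by -0.13, and by 0.15 in replicates 2 and 3, and Ncr1 by 0.04 and -0.09. The BCL2 family had a median of 0.07 over 15 tested, or -0.06 in replicates 2 and 3. No member had an unadjusted p under 0.05, against 3.16% of all genes. Mcl1 differed by 0.82, Bcl2l11, the gene of BIM, by -0.60, and Bcl2 as given above. Of the TGF-β pathway, known to shape ILC1 residency, 0 of 17 tested genes had an unadjusted p under 0.05, against 3.16% of all genes. The median was -0.09, or 0.03 in replicates 2 and 3, with Smurf1 at 0.81 among the members of smallest p, beside Eng and Tgfb1. The TNF superfamily and receptor list had a median of 0.08 over 20 tested, or -0.29 in replicates 2 and 3, with Tnf and Lta as above.

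The retinoic acid receptor and target list held too few tested genes for its counts over all 6 libraries to be told apart from all genes. None of 16 tested had an unadjusted p under 0.05 and none had spleen and liver libraries that did not overlap, against 3.16% and 4.50% or 5.16% of all genes, and the median was 0.11. In replicates 2 and 3, 2 were higher in spleen and 3 higher in liver at an unadjusted p under 0.05, against 3.24% of all genes each, and the median was -0.03. There 3 were higher in spleen and 5 higher in liver without overlap, against 18.3% and 18.7%. Rara, whose count could include the transgene's reads, stood at 5.84, 5.45 and 5.75 in spleen and 5.39, 5.53 and 5.74 in liver, a difference of 0.15, or -0.02 in replicates 2 and 3. Its control levels lay between 4.74 and 5.59, which overlap those of the RARα403 cells. Rarg stood at 4.25, 5.94 and 5.10 in spleen and 5.51, 3.89 and 4.74 in liver (0.40, or 1.21 in replicates 2 and 3). Rarb, itself a target of retinoic acid receptors, had 24, 0 and 0 counts in spleen and 25, 17 and 70 in liver (-2.09).

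The other receptors of the pathway, Rxra and Rxrb, each differed by 0.11, and Rxrg was detected in 1 of the 6 libraries only. The members of smallest p were P2rx7, the ATP receptor that Art2b acts on (-1.55, or -2.55 in replicates 2 and 3), Itga4 and the corepressor gene Ncor1 (0.55). Cyp26b1, the enzyme that degrades retinoic acid, and Stra6, a retinol transporter, were below 0 log2 CPM in all 6 libraries and were not tested. Dhrs3, a retinaldehyde reductase, stood at 4.29, 5.21 and 4.56 in spleen and 3.57, 4.65 and 3.83 in liver (0.67), with overlapping libraries.

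Cell cycle genes varied widely between replicates of one group. The median level of the 40 genes was 6.32, 4.5 and 2.5 log2 CPM in the RARα403 spleen libraries and 2.17, 3.99 and 4.03 in liver. The library labelled spleen replicate 1 was the highest of the 12 ILC1 libraries and liver replicate 1 the lowest. Mki67, which marks cycling cells, stood at 7.54, 5.22 and 2.16 in spleen and 0.16, 4.31 and 3.74 in liver, and Top2a, a topoisomerase of dividing cells, at 8.10, 5.79 and 2.16 against 1.75, 5.62 and 4.89. Their differences were 2.79 (SE 1.36) and 2.07 (SE 1.33), and 0.33 and -0.40 in replicates 2 and 3.

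The list median was 1.00 with all libraries and -0.32 in replicates 2 and 3, and by number it was 3.95, 0.10 and -1.0. Over all libraries 3 of 40 were higher in spleen at an unadjusted p under 0.05 and 3 without overlap, against 1.60% and 4.50% of all genes. The members of smallest p were Ube2c (6.35, 2.06 and 2.43 in spleen, and 0, 0 and 5 counts in liver), Nusap1 (2.5) and Cdc20 (2.63), which act in chromosome segregation. The range of Mki67 over the 3 RARα403 spleen libraries exceeded its organ difference. In control cells the list went the other way: 23 of 40 were higher in liver without overlap, against 4.56% of all genes, with a median of -1.59.

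**Figure D4:**
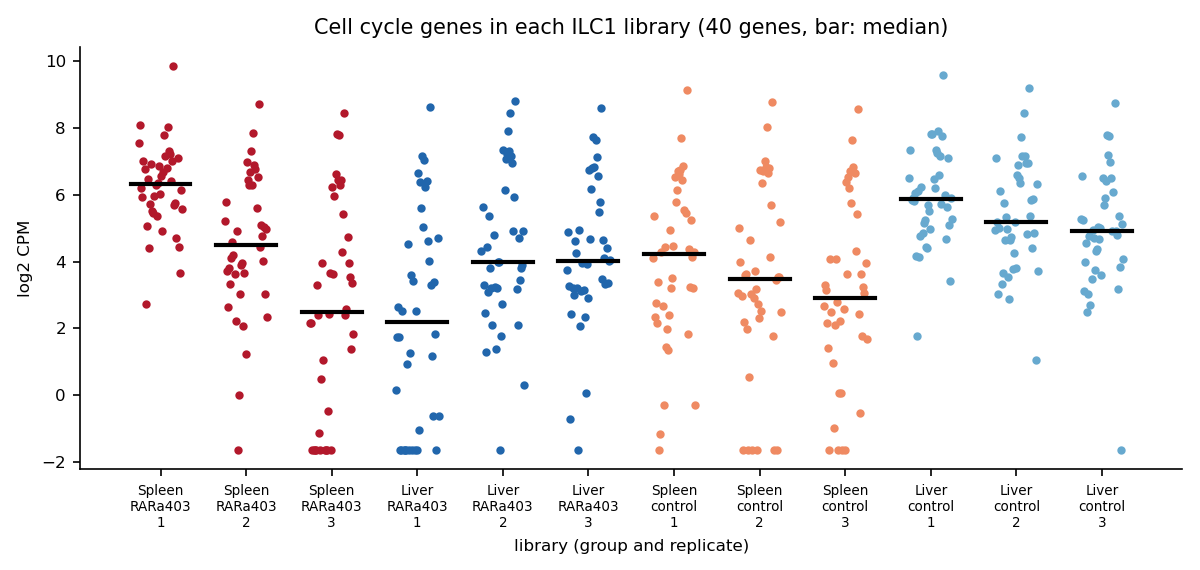
Levels of 40 cell cycle genes (log2 CPM, vertical axis; 1 point per gene, bar at the median) in each ILC1 library. The RARα403 libraries numbered 1 have the highest (spleen, 6.32) and the lowest median (liver, 2.17), and the medians of the 3 control liver libraries (5.86, 5.17 and 4.92) lie above those of the 3 control spleen libraries.

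Immediate early and heat shock genes had a median of 0.04 over 33 tested, or -0.27 in replicates 2 and 3. Egr1 stood at 0 counts, 2.00 and 0.33 in spleen and 4.44, 5.17 and 3.31 in liver (-3.84, unadjusted p = 0.02017 by edgeR, or -3.29 in replicates 2 and 3), without overlap, Egr2 differed by -1.88, and Gadd45b was the third by p. Interferon response genes had a median of -0.05 over 31 tested, or -0.13 in replicates 2 and 3, with Rsad2, the antiviral viperin, at 3.79, 6.22 and 5.44 in spleen and 0 counts, 0 counts and 3.20 in liver (3.87, or 3.72 in replicates 2 and 3), Usp18 at 0.90, and Rtp4 next by p. Cholesterol and fatty acid synthesis genes had a median of -0.11 over 26 tested, or -0.32 in replicates 2 and 3; beside Scd1, Mvd of the mevalonate pathway differed by 0.77 and Acly, which makes cytosolic acetyl-CoA, by -0.33. Glycolysis and hypoxia genes had a median of -0.08 over 24 tested, or -0.23 in replicates 2 and 3. There Bnip3, a mitophagy receptor, stood at 2.87, 4.31 and 5.05 in spleen and 5.37, 5.68 and 5.68 in liver (-1.26, or -0.95 in replicates 2 and 3), and the glucose transporters Slc2a1 and Slc2a3 differed by 0.42 and -0.66.

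In replicates 2 and 3 the genes of smallest p higher in liver after Cxcr6, again picked with values in view, included Art2b, Entpd1 and Adam19. Art2b, an ADP-ribosyltransferase of the cell surface, stood at 3.74, 0 counts and 0 counts in spleen and 2.57, 5.83 and 5.42 in liver. Entpd1 (CD39), which breaks down extracellular ATP, stood at 3.79, 3.12 and 4.01 in spleen and 4.02, 6.55 and 6.30 in liver (-2.82 in replicates 2 and 3, -2.30 over all 6). The metalloprotease Adam19 stood at 5.26, 3.15 and 2.89 in spleen and 1.68, 6.66 and 5.86 in liver (-3.34 in replicates 2 and 3), so number 1 was reversed as for Cxcr6. The others were Tcrg-C1, Gimap7, Plcg1, Cpne7, Mmp9, P2rx7, Tmem273 and Socs2. Mmp9, the gelatinase B gene, stood at 4.47, 0 counts and 2.16 in spleen and 2.06, 7.79 and 7.53 in liver.

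The 12 genes of smallest p higher in spleen in replicates 2 and 3 included the B cell genes H2-Aa, Igkc, Spib, Ly6d, Ms4a1 and Btk. Cyp4f18, Scd1, Ralgps2, As3mt and Fam69a were also among them. H2-Aa, the MHC class II α chain, stood at 5.47, 6.91 and 5.92 in spleen and 0 counts, 3.44 and 2.89 in liver (3.35 in replicates 2 and 3). As3mt, an arsenic methyltransferase, stood at 0.35, 5.38 and 5.0 in spleen and 5.53, 2.1 and 2.39 in liver, another gene whose number 1 values were in reverse order. Its control values, 4.83, 6.51 and 5.57 in spleen and 1.65, 3.14 and 3.30 in liver, did not overlap and lay on the side of RARα403 replicates 2 and 3.

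Control spleen and liver ILC1s were compared in the same way to place the RARα403 values. There 0 of 11989 genes (0%) passed by edgeR, with 233 higher in spleen (1.94%) and 218 higher in liver (1.82%) at an unadjusted p under 0.05, together 3.76%. DESeq2 called 36, with 19 higher in spleen (0.158%) and 17 higher in liver (0.142%). Libraries did not overlap for 568 genes higher in spleen (4.74%) and 547 higher in liver (4.56%). Of 11291 genes tested in both genotypes, 493 were higher in RARα403 spleen and 522 higher in control spleen without overlap, and 26 were so in both (5.27% and 4.98%). Higher in liver without overlap were 591 in RARα403 and 527 in control cells, and 36 in both (6.09% and 6.83%). Another 24 of the genes higher in RARα403 spleen and 22 of those higher in RARα403 liver lay without overlap on the opposite side in control cells.

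Whether the organ difference itself differed between RARα403 and control cells was tested as an interaction over the 12 ILC1 libraries. None of 13983 genes passed by edgeR (0%), with 237 higher (1.69%) and 273 lower (1.95%) at an unadjusted p under 0.05, and DESeq2 called 16. A positive value means that spleen over liver was larger in RARα403 cells. Of 40 cell cycle genes, 14 had an unadjusted p under 0.05 on the higher side and 0 on the lower, against 1.69% and 1.95%, with a median of 3.13. Among the genes of smallest p were the kinetochore gene Spc25 (4.97, unadjusted p = 0.00026), Cdc20 (4.90) and the replication fork gene Tipin (1.78), all with edgeR adjusted p of 1. The library labelled spleen replicate 1, highest in cycle genes, enters this contrast. In the fit without RARα403 number 1, 0 of 14746 genes passed by edgeR (0%), and 205 were higher (1.39%) and 260 lower (1.76%) at an unadjusted p under 0.05. There 5 of 40 cell cycle genes were on the higher side at that p and 0 on the lower, and their median was 1.25. Spc25 stood at 3.97 in that fit, Cdc20 at 2.75 and Tipin at 1.81.

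Tmco3, a transmembrane protein gene (chromosome 8, 13288190 to 13322924, plus strand), stood at 6.19, 4.92 and 5.58 in RARα403 spleen and 3.97, 4.51 and 4.52 in RARα403 liver. In control cells it stood at 3.65, 3.94 and 4.50 in spleen and 5.79, 5.49 and 4.68 in liver. Klhl4, a Kelch-family gene (chromosome X, 114474333 to 114560829, plus strand), stood at 5.06, 4.72 and 5.14 in RARα403 spleen and 3.44, 2.82 and 1.04 in RARα403 liver, against 3.92, 3.98 and 4.39 and 5.38, 4.60 and 5.25 in control cells. In both genes the organs were in opposite order in the 2 genotypes, each without overlap, and neither passed by edgeR (adjusted p = 1). On the lower side were Ercc4 of DNA repair (-1.34, or -1.41 without RARα403 number 1), Slc25a12 (-1.25, or -1.26), the ribosome biogenesis gene Ftsj3 (-1.16, or -0.99), Setbp1 (-5.99) and Dmrta1, which had 0 counts in all control liver libraries, 45, 345 and 9 in control spleen, 220, 304 and 315 in RARα403 spleen and 302, 49 and 129 in RARα403 liver.

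**Figure D5:**
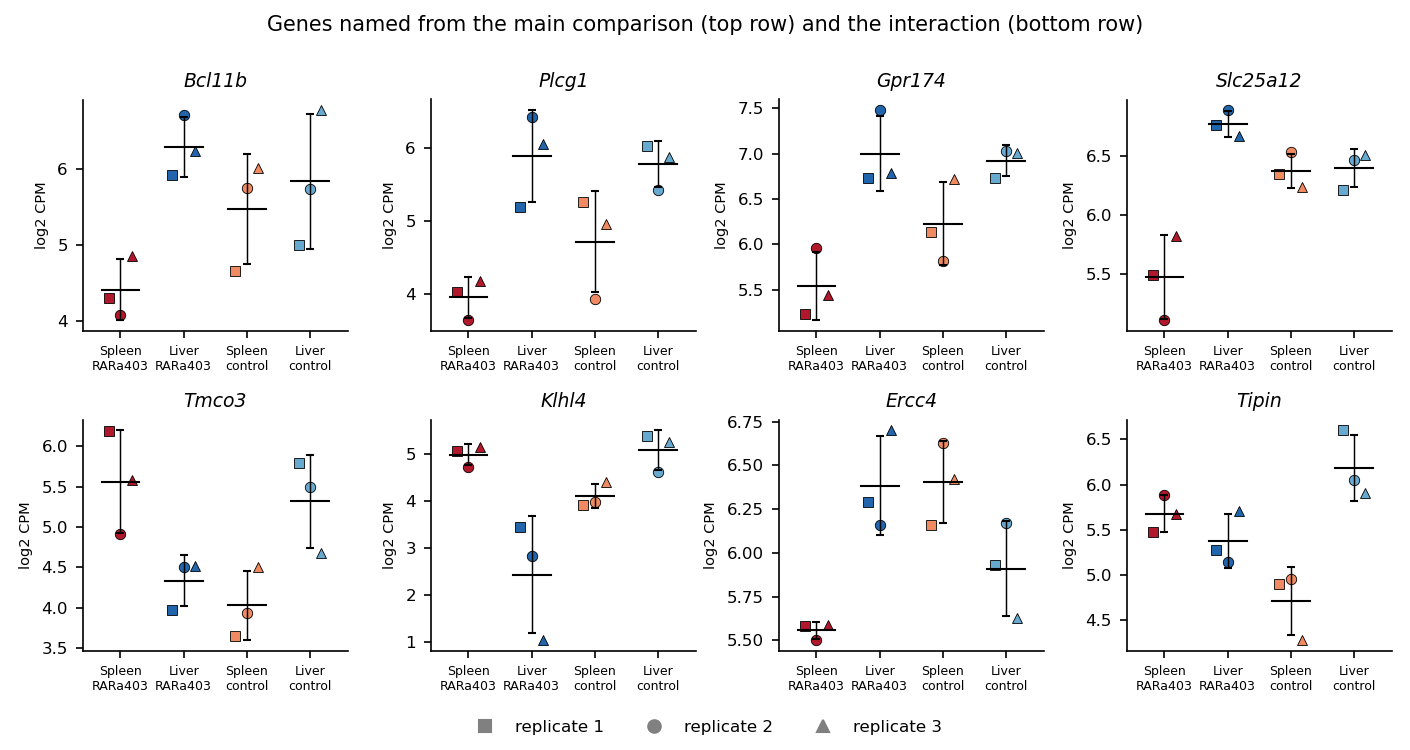
Levels (log2 CPM, vertical axis) in each RARα403 and control ILC1 library by organ, with the mean and SD of 3 replicates, of Bcl11b, Plcg1, Gpr174 and Slc25a12 (top row) and of Tmco3, Klhl4, Ercc4 and Tipin (bottom row). Slc25a12 lies between 5.11 and 5.82 in RARα403 spleen and above 6.0 in the other 3 groups, and Tmco3 and Klhl4 show the organs in opposite order in the 2 genotypes.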

How the data were processed

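Per the labels' protocols, cDNA of 200 sorted cells was made with a SMART-seq HT kit for each library. The deposited values are whole-number gene counts. Reads were handled with fastp 0.23.0, HISAT2 2.1.0 and featureCounts of Subread 1.6.5 on mm10, per the submitters' processing notes; the sources used here do not give the annotation release, the strand setting or the treatment of multiply aligned reads, so overlapping, antisense and near-identical genes are uncertain. Of 46078 genes, 45229 had a symbol in the annotation, and the other 849 were left unnamed and held 0.0544% of counts. Coordinates come from GENCODE M21 (mm10).

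Here, genes were kept by filterByExpr at a minimum count of 10 in the libraries fitted, scaled by TMM and tested with edgeR 4.0.16 (quasi-likelihood, R 4.3.3), with Benjamini-Hochberg adjustment and a threshold of 0.05. The organ comparisons were fitted on 6 libraries each and the interaction on the 12 ILC1 libraries. Between RARα403 libraries the estimated biological coefficient of variation was 0.617 with all 6 and 0.505 in replicates 2 and 3. The prior count of log2 CPM levels was 2. SE is the fold change over the root of F. Lower bounds use 3 counts per library as a floor. Intervals of ratios are exact at 95% and, with the floors, cover counting error only.

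The comparison and the 34 gene lists (761 entries, 744 in the table) were chosen with earlier results of these data known. Named genes are, per direction, the 12 with the largest change among those past the threshold, or otherwise the smallest p, at 3 log2 CPM or more in the higher group without overlap, leaving out predicted genes. For the interaction 5 per direction were taken by p, and for each list up to 3. A set was always given: Cxcr6, Zfp683, Bcl2, S1pr1, Klf2, Eomes and Tbx21, the gate genes Itga1, Itga2, Il7r and Ncr1, and the 3 RAR genes. Chosen after their values were seen, as markers or members of lists, were also Klrb1c, Cd3e, Alb, Mki67, Top2a, Ighm, Ms4a1, Igkc, Cd79a, Rxra, Rxrb, Rxrg, Cyp26b1, Stra6 and Dhrs3. Any other gene so chosen is marked where it is named. Sex-linked, endothelial, stellate, plasma cell, neutrophil and monocyte, erythroid and platelet, glucocorticoid and dendritic lists had medians of -0.47 to 0.42 where tested (-0.31 to 1.71 in replicates 2 and 3) and are not described gene by gene.

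Alternatives were DESeq2 1.42.0, RLE scaling, no filter, limma-voom with quality weights (limma 3.58.1), a test against a log2 fold change of 1, fits of 12 and of all 18 libraries, a replicate block, replicates 2 and 3 only, and leaving out each library. Steps were tested on simulated counts with 200 changed genes. Some genes that the rules name are not reported here.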

Additional observations from a re-analysis of the deposited data

Results flagged for a closer look

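Among the genes already named, Klhl4 and Tmco3 were singled out because their organ differences ran in opposite directions in RARα403 and control ILC1s. In each genotype every library of one organ lay above every library of the other. Both had been named by their interaction p, so this order is no separate support. Over all genes, 24 of 493 higher in RARα403 spleen and 22 of 591 higher in RARα403 liver had such an order. The shares of all genes higher in control liver and control spleen without overlap were 4.56% and 4.74%. The difference between the genotypes was 3.32 for Klhl4 (SE 0.78, unadjusted p = 0.001061 by edgeR) and 2.66 for Tmco3 (SE 0.61, unadjusted p = 0.000907 by edgeR), on the log2 scale. Neither passed the adjustment over 13983 genes, with an edgeR adjusted p of 1. In RARα403 replicates 2 and 3 the organ difference was 2.85 for Klhl4 and 0.79 for Tmco3.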

How the results depend on the processing

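The count of genes called between RARα403 spleen and liver was 0 by edgeR and stayed at 0 with RLE scaling, limma-voom, a test against a log2 fold change of 1, the fits of 12 and 18 libraries, and replicates 2 and 3 only. Leaving out each library in turn gave 0 to 0 in that comparison, in control cells and in the interaction. It was 33 by DESeq2, 70 without a filter on low counts, 142 by DESeq2 in replicates 2 and 3 and 44 by DESeq2 with a replicate block, the last 2 chosen after seeing the data. In control cells DESeq2 called 36 genes and the unfiltered fit 232, and in the interaction they called 16 and 92. The cause of these differences was not tested. With the replicate number as a block edgeR called 0 genes in each of the 3 comparisons. Same-numbered RARα403 spleen and liver libraries deviated together at r = -0.031, 0.0543 and -0.0022, below the limit of 0.1 for taking the numbers as pairs, and the labels do not say what the numbers mark. Xist and Gt(ROSA)26Sor followed the numbers across organs, so whether same-numbered libraries came from 1 animal was not tested.

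Of 116 gene results followed, 109 kept their direction under every alternative run. Cdc20, Setbp1 and Slc25a12 were followed in both the organ comparison and the interaction. Genes chosen for organs without overlap could not turn when libraries were left out, so the count of 109 is partly fixed by that choice. In replicates 2 and 3 only, Ncr1 turned to -0.09 (-0.08 with the block), Rara to -0.02 (-0.03 with the block and in the 12-library fit) and Tbx21 to 0.15 (0.14 in the 12-library fit), and limma-voom gave 0.03 for Tbx21. Leaving out 1 library gave ranges of -0.04 to 0.50 for Il7r, -0.41 to 0.63 for Itga2, -0.07 to 0.18 for Ncr1, -0.12 to 0.89 for Rarg, -0.30 to 0.04 for Tbx21 and -0.16 to 2.47 for As3mt. Genes below the level of 3 counts per library cannot be compared at this depth.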
